A study of Mus musculus with 2 samples.

Results

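The 8 genes studied here make, package or clear the classical transmitters, and are 8 of the 45578 genes in a table of ribosome-protected fragments from mouse brain. They were taken by name: Gad1, Gad2, Slc32a1 and Slc6a11 for GABA, Slc17a6 and Slc17a7 for glutamate, and Th and Slc18a2 for monoamines. Each symbol matched 1 Ensembl gene, and the value of a gene is the count of its best covered transcript over both libraries. The samples were brains of mice at postnatal day 5 (P5), genotype Smn+/-; SMN2tg/0, of the Taiwanese spinal muscular atrophy line on a congenic FVB background. These heterozygous carriers of the human SMN2 transgene are the controls of that disease line, and they keep 1 intact copy of the mouse Smn gene. RiboLace was used to pull down ribosomes engaged in translation, and the fragments they protected were sequenced. The series holds 2 biological replicates of this 1 group, 1 library each, and the labels do not say whether these came from different animals. The difference between these libraries can therefore be measured, and it may be technical, but an effect of genotype, age or treatment cannot. The exact binomial p-values below ask whether 2 counts differ beyond counting error. They do not measure the spread between samples.

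Neurons that release GABA form it from glutamate with glutamate decarboxylase, of which Gad1 and Gad2 encode separate forms, and load it into synaptic vesicles with the transporter encoded by Slc32a1. Released GABA is taken up by plasma membrane transporters, among them that of Slc6a11, known from astrocytes; Slc6a11 is therefore neither a synthesis gene nor a vesicular one. Glutamate enters vesicles through the products of Slc17a7, typical of cortex, hippocampus and cerebellar granule cells, and Slc17a6, typical of thalamus, brainstem and many immature neurons. Th encodes tyrosine hydroxylase, the rate-limiting step of dopamine and noradrenaline synthesis, and Slc18a2 the carrier that fills vesicles with monoamines; the cells that use them are few and lie mostly in the midbrain and hindbrain.

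Gene counts summed to 343552 in replicate 1 and 120282 in replicate 2. After scaling, 1 count was worth 2.71 CPM (counts per 1000000 of the effective library size) in replicate 1 and 8.93 CPM in replicate 2, so replicate 2 carries the larger counting error throughout. Levels of different genes are compared here as footprint density, which is CPM per kilobase of coding sequence. The fragments counted may also come from untranslated regions. Without RNA levels, density does not separate the amount of a messenger RNA from the number of ribosomes on each copy. Intervals are 95% exact intervals unless another kind is named, and they cover counting error only. The defining markers of neurons were present: 8 of 8 listed genes had at least 10 counts in sum, with 131 and 41 counts of Snap25, a vesicle fusion protein, in replicates 1 and 2. Astrocyte markers likewise had 8 of 8. The dopamine neuron list held 42 and 8 counts over 7 genes, of which Foxa2 was at 0 in both libraries and Nr4a2, which other neurons also express, gave 21 and 5. In bulk brain, fewer cells of a type and less RNA per cell cannot be told apart.

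The 8 genes fell into levels that both libraries placed in nearly the same order. Slc6a11 was highest, Slc17a6 and Slc32a1 followed, Gad1, Slc17a7 and Gad2 came next, and Th and Slc18a2 were close to the limit of detection. Together the 8 genes held 533 counts in replicate 1 and 172 in replicate 2. That is 0.155% of gene counts (95% Wilson interval 0.143 to 0.169) and 0.143% (0.123 to 0.166), or 0.149% ± 0.00859 (SD, n = 2). Of these counts the 4 GABA genes held 70.2% in replicate 1 and 71.5% in replicate 2, the 2 glutamate carriers 27.2% and 27.9%, and the 2 monoamine genes 2.63% (Wilson interval 1.57 to 4.36) and 0.581% (0.103 to 3.22). The division between GABA and glutamate genes thus differed between the libraries by less than the counting intervals. These shares are of raw counts, set 4 genes against 2 and depend on the genes chosen. Slc6a11 alone gave 170 of the 374 GABA counts in replicate 1 and 65 of the 123 in replicate 2.

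**Figure D1:**
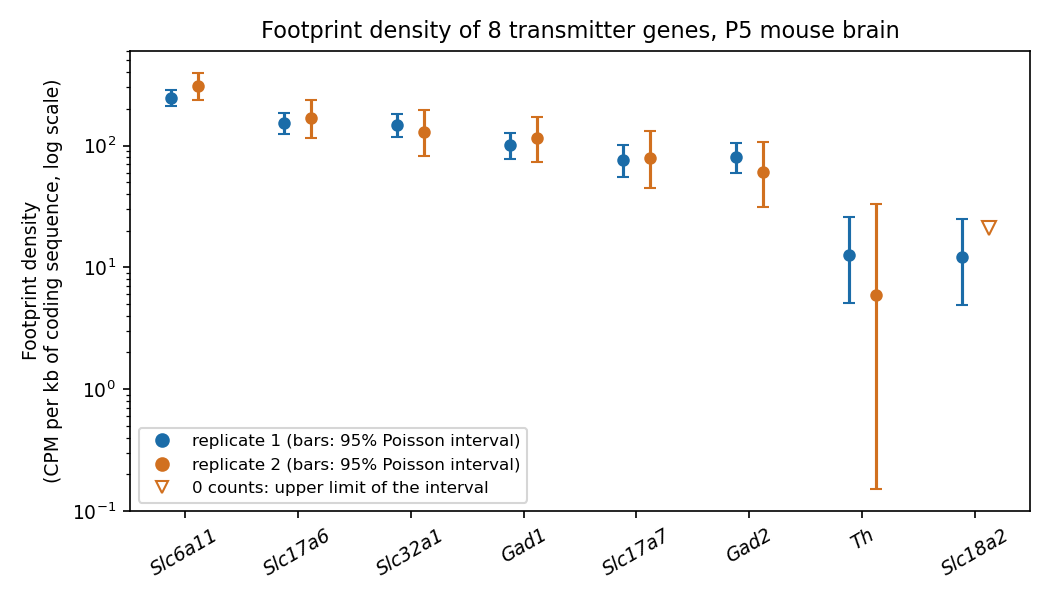
Footprint density in CPM per kilobase of coding sequence (log scale) for the 8 genes in replicate 1 (blue) and replicate 2 (orange), with bars for the 95% Poisson interval of the count. Slc6a11 lies above all the others in each library, and Slc18a2 in replicate 2, with 0 counts, is drawn as the upper limit of its interval.

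The decarboxylase genes both had footprint counts in each library, with Gad1 nominally the higher. Gad1 (ENSMUSG00000070880), with a coding sequence of 1782 nucleotides (593 codons), had 66 counts in replicate 1 and 23 in replicate 2. Its density was 100.4 CPM per kilobase (77.6 to 128) and 115 (73.1 to 173), or 108 ± 10.5 (SD, n = 2). Gad2 (ENSMUSG00000026787), with 1758 coding nucleotides (585 codons), had 52 and 12 counts. Its density was 80.2 (59.9 to 105) and 61.0 (31.5 to 106), or 70.6 ± 13.6 (SD, n = 2). Gad2 was below Gad1 in each library, but the ratio of their densities was 0.799 (0.544 to 1.17) in replicate 1 and 0.529 (0.240 to 1.11) in replicate 2, and neither interval left out equality. With 1 transcript taken per gene and density per coding kilobase, the 2 forms could therefore not be ranked at this depth. The ratio also depends on both choices: over both libraries it was 0.654, and 0.263 with transcripts summed. Per kilobase of whole transcript it was 0.377, and whether its intervals leave out equality was not tested.

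Slc32a1 (ENSMUSG00000037771), the vesicular GABA carrier, had 86 counts in replicate 1 and 23 in replicate 2 over 1578 coding nucleotides. Its density was 148 (118 to 182) and 130.2 (82.5 to 195), or 139 ± 12.4 (SD, n = 2). The carrier stood above Gad1 beyond counting error in replicate 1, at a density ratio of 1.47 (1.06 to 2.06), but not in replicate 2, at 1.13 (0.606 to 2.11). This direction depends on taking 1 transcript per gene. Over both libraries the ratio was 1.29, and with transcripts summed it was reversed, at 0.406. Against Gad2 the interval lay above equality in each library, at 1.84 (1.29 to 2.65) and 2.14 (1.02 to 4.71).

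Slc6a11 (ENSMUSG00000030307), the GABA uptake transporter, had the highest footprint density of the 8 genes when 1 transcript was taken per gene. It had 170 counts in replicate 1 and 65 in replicate 2 over 1884 coding nucleotides, or a density of 245 (209 to 284) and 308 (238 to 393), with a mean of 276 ± 44.9 (SD, n = 2). That placed it at percentile 97.5, rank 528, of 20757 protein-coding genes with an annotated coding sequence. Its density exceeded that of Slc32a1 by 1.66 times (1.27 to 2.17) in replicate 1 and 2.37 times (1.45 to 3.99) in replicate 2, and that of Slc17a6, the next gene in the order, by 1.61 times (1.25 to 2.09) and 1.83 times (1.19 to 2.87). All of these intervals lay above 1.

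Among astrocytic glutamate transporters, Slc1a3 was at a level close to that of Slc6a11, with a ratio of Slc6a11 to Slc1a3 of 0.969 (0.774 to 1.21) and 0.954 (0.660 to 1.38). Slc1a2 was lower, with Slc6a11 at 1.63 times (1.26 to 2.12) and 2.47 times (1.53 to 4.13) its density. Slc6a13 and Slc6a12, further GABA carriers of the plasma membrane, were scarce, with 8 and 5 counts and with 2 and 0.

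For glutamate, the vesicular carrier Slc17a6 stood above Slc17a7 in each library. Slc17a6 (ENSMUSG00000030500) had 98 counts in replicate 1 and 33 in replicate 2 over 1749 coding nucleotides, a density of 152 (123 to 185) and 168 (116 to 237), or 160.2 ± 11.8 (SD, n = 2). Slc17a7 (ENSMUSG00000070570) had 47 and 15 counts over 1683 coding nucleotides, a density of 75.7 (55.6 to 101) and 79.6 (44.5 to 131), or 77.6 ± 2.76 (SD, n = 2). The density of Slc17a7 was 0.498 times that of Slc17a6 (0.344 to 0.713) in replicate 1 and 0.472 times (0.238 to 0.894) in replicate 2. Both intervals lay below equality, and the libraries differed in this ratio by far less than the width of either interval. This separation holds per kilobase of coding sequence. Per kilobase of whole transcript the ratio over both libraries was 0.685, from 0.485, and whether its intervals leave out equality was not tested. The remaining vesicular glutamate carrier, Slc17a8, had 4 and 1 counts; Slc17a6 exceeded its density by 25.3 times (9.57 to 94.7) in replicate 1, and in replicate 2 the single count gave a ratio of 34.1 with an interval from 5.70 to 1386.

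Slc17a6 was also set beside 2 general synaptic proteins. Sv2a, a glycoprotein of most synaptic vesicles, had 183 and 60 counts, and Slc17a6 stood at 0.682 times its density (0.528 to 0.877) in replicate 1 and 0.701 times (0.444 to 1.09) in replicate 2. Relative to Snap25 it stood at 0.266 times (0.202 to 0.348) and 0.286 times (0.175 to 0.463). Slc32a1 and Slc17a6 themselves could not be ordered: Slc17a6 was at 1.03 times the density of Slc32a1 (0.762 to 1.39) and at 1.29 times (0.737 to 2.31).

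**Figure D2:**
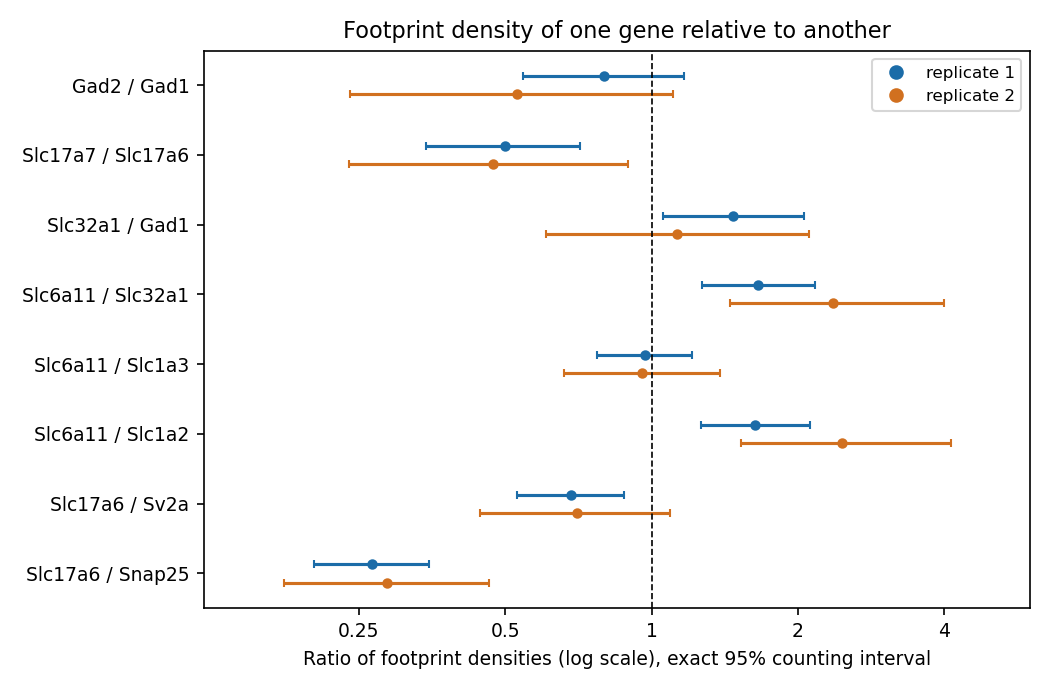
Ratio of the footprint densities of pairs of genes (log scale) in replicate 1 (blue) and replicate 2 (orange), with exact 95% counting intervals; the dashed line marks equality. Slc17a7 lies below Slc17a6 and Slc6a11 above Slc32a1 in each library, while the intervals of Gad2 over Gad1 and of Slc6a11 over Slc1a3 cross the line.

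The monoamine genes were near the limit of detection. Th (ENSMUSG00000000214) had 7 counts in replicate 1 and 1 in replicate 2 over 1497 coding nucleotides, a density of 12.7 (5.09 to 26.1) and 5.97 (0.151 to 33.2). Slc18a2 (ENSMUSG00000025094) had 7 counts and 0 counts over 1554 coding nucleotides, a density of 12.2 (4.91 to 25.2) in replicate 1. The exact interval of the 0 counts in replicate 2 reaches up to 3.69 counts, or 32.9 CPM. That limit is above the 19.0 CPM of replicate 1, so the absence of counts shows no difference. Gad2, the next gene up, exceeded the density of Th by 6.33 times (2.86 to 16.5) in replicate 1 and by 10.2 times (1.51 to 437) in replicate 2. The mean density of Th lay at percentile 59.1 of protein-coding genes, whose median was 5.09. Slc18a2 lay at percentile 63.7 in replicate 1 and, with no count, at 23.6 in replicate 2.

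Over the 15 pairs among the 6 genes other than Th and Slc18a2, the density ratio left out equality in 11 pairs in replicate 1, in 8 pairs in replicate 2, and in the same 8 pairs in both. Of the 7 pairs of neighbours in the order of mean density, 2 were separated in both libraries: Slc6a11 from Slc17a6, and Gad2 from Th. Slc32a1 and Gad1 were separated in replicate 1 alone. The order of Slc17a7 and Gad2 differed between the libraries.

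Between the libraries, none of the 8 genes was called different. The 2-sided exact binomial test, with Benjamini-Hochberg adjustment over the 5436 genes whose mean count reached 10, called 225 genes at an adjusted p under 0.05, or 4.14% of those tested. The test compares the reads of 2 libraries, not conditions. Among the protein-coding genes of this test 0.956% were called. Of the 8 genes 6 passed the count filter and 0 of these were called; at an unadjusted p under 0.05 there were also 0, beside 9.6% of all genes tested. With edgeR's exact test at a preset coefficient of variation of 0.2 there were again 0, beside 2.41%. With such shares called in the background, a count of 0 among 6 is not a result about these genes.

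Slc6a11 had the smallest p of them, at 461 CPM in replicate 1 and 580 CPM in replicate 2. Its fold of replicate 2 over replicate 1 was 1.26 (0.932 to 1.69), with a log2 ratio of 0.33 on the log2(CPM + 1) scale, an exact binomial p of 0.122 and an adjusted p of 0.746. Slc17a6 stood at 266 and 295 CPM, a fold of 1.11 (0.724 to 1.66). Gad1 stood at 179 and 205 CPM, a fold of 1.15 (0.682 to 1.87), and Slc17a7 at 127 and 134 CPM, a fold of 1.05 (0.546 to 1.91). Slc32a1 and Gad2 were nominally lower in replicate 2. Slc32a1 stood at 233 and 205 CPM, a fold of 0.881 (0.531 to 1.41), and Gad2 at 141 and 107 CPM, a fold of 0.760 (0.369 to 1.44). These intervals do not show the libraries to be equal. Th and Slc18a2 were below the filter; the fold of Th was 0.471 with an interval from 0.0104 to 3.66, and that of Slc18a2 had an upper bound of 2.29.

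**Figure D3:**
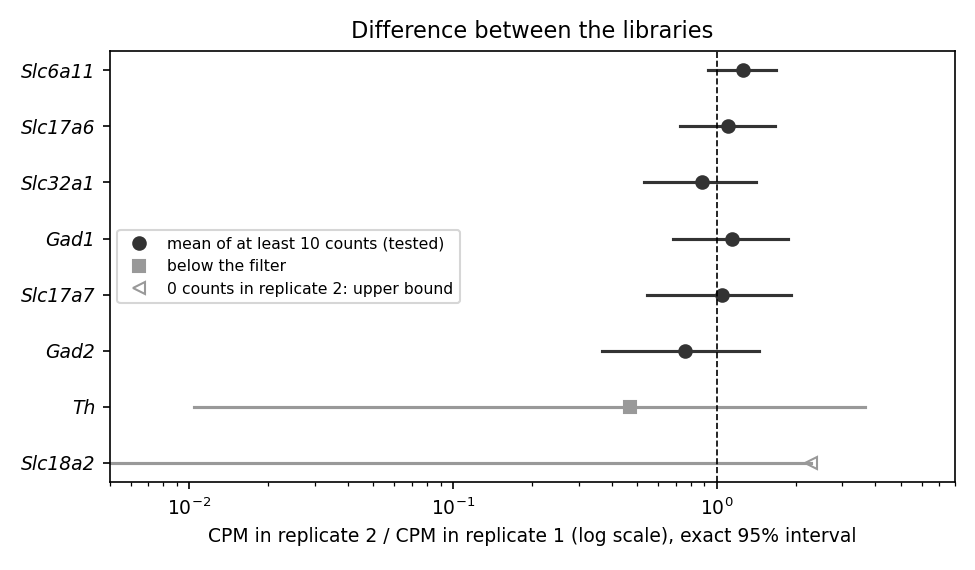
CPM in replicate 2 divided by CPM in replicate 1 (log scale) for the 8 genes, with exact 95% intervals; circles are genes past the count filter, grey marks those below it. The interval of every gene spans 1, and that of Th runs from 0.0104 to 3.66.

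The genes around these steps of transmitter metabolism were taken from 6 lists of 45 genes. Of these, 21 had at least 10 counts in sum over the libraries, 18 passed the count filter, and 0 were called between the libraries. The share called was 4.14% over all genes tested and 0.956% over the protein-coding ones, so 0 among 18 is not a result about these genes. In the GABA list 4 of 6 genes were tested, with 0 called and a median log2 ratio of -0.24, beside 0.0041 over all genes tested. Abat and Aldh5a1, which break GABA down, stood at densities of 107 ± 8.90 and 79.4 ± 0.161 (each SD, n = 2). The levels of these breakdown enzymes lay within the range spanned by Gad2 and Slc32a1. Slc38a2 and Slc38a1, amino acid carriers that supply glutamine, stood at 119.9 ± 27.8 and 75.5 ± 11.5 (each SD, n = 2).

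In the glutamate list 7 of 10 genes were tested, with 0 called and a median log2 ratio of -0.065. Glul, the glutamine synthetase of astrocytes, had 127 and 33 counts and a density of 285 ± 31.2 (SD, n = 2), and Slc1a3 one of 288 ± 49.8. These genes of glial uptake and recycling had the highest mean densities of this list. Slc6a11 was at 0.797 times (0.630 to 1.01) and 1.17 times (0.760 to 1.84) the density of Glul, and neither interval left out equality. Gls2, a glutaminase, was at 0 in both libraries. Got2, Glud1 and Got1, enzymes of glutamate interconversion used in all cells, stood at 205 ± 6.58, 172 ± 5.42 and 137 ± 0.606 (each SD, n = 2). Slc1a1, a neuronal glutamate transporter, had 33 and 6 counts, and Slc1a6, known from Purkinje cells, 10 and 6.

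Most of the monoamine list was low. Of its 17 genes, 14 had fewer than 10 counts in sum and 3 were tested, with 0 called and a median log2 ratio of -0.76. The enzyme after Th, Ddc, had 7 and 2 counts, and the dopamine transporter Slc6a3 also 7 and 2. The serotonin transporter Slc6a4 had 5 and 2, the noradrenaline transporter Slc6a2 5 and 0, Tph2 of serotonin synthesis 3 and 0, and Dbh of noradrenaline synthesis 2 and 1. Tph1 and Slc18a1, which serve monoamine cells outside the brain, were at 0 in both libraries. The genes of this list with more counts are also used beyond these neurons: Maoa, a monoamine oxidase of mitochondria, had 32 and 8 counts, and Spr and Qdpr, which make and recycle the biopterin cofactor, 18 and 3 and 17 and 3.

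Acetylcholine and glycine genes were also sparse. Ache, the esterase, had 38 and 9 counts, while Chat, Slc18a3 and Slc5a7, which mark cholinergic neurons, had 0 and 1, 2 and 1, and 5 and 1. The glycine transporter Slc6a9, known from glia, had 18 counts in replicate 1 and 0 in replicate 2. The upper bound of its exact interval was 0.749 of the level of replicate 1; with a mean under 10 counts it was not tested. The neuronal glycine transporter Slc6a5 had 7 and 0 counts. Among other vesicle proteins, Sv2b and Sv2c stood at densities of 56.0 ± 0.781 and 41.3 ± 11.0 (each SD, n = 2), while Slc30a3 and Slc10a4 had 5 and 1 and 6 and 2 counts, and Slc17a9 had none.

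**Figure D4:**
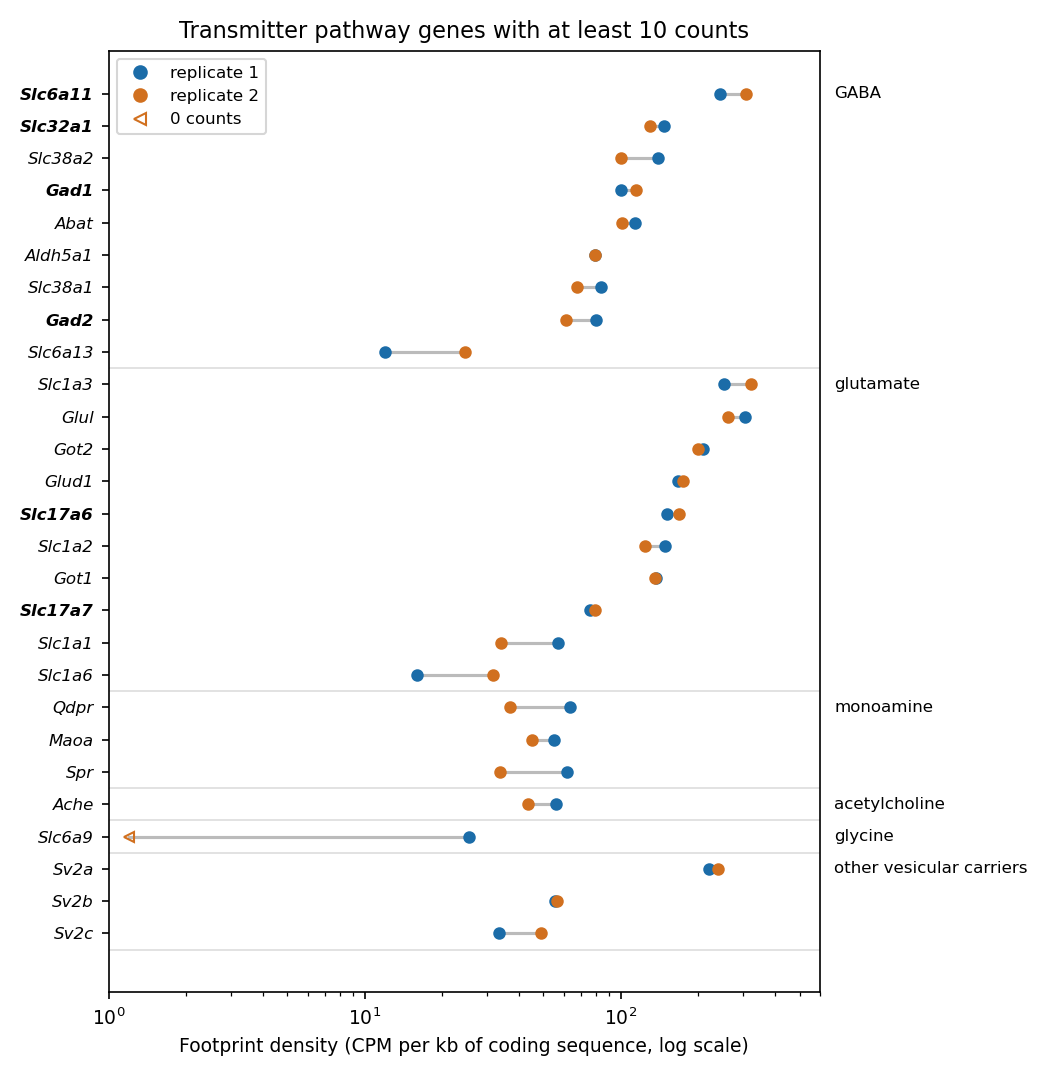
Footprint density (log scale) in replicate 1 (blue) and replicate 2 (orange) for the genes of each transmitter list with at least 10 counts in sum, with the 6 genes of the main set in bold. Of the genes plotted, Slc6a11 is at the top of the GABA list and Slc1a3 and Glul at the top of the glutamate list, and Slc6a9 has 0 counts in replicate 2, drawn as an open triangle at the left edge.

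Markers of the neurons that use these transmitters were read alongside. The general neuron list summed to 6249 CPM in replicate 1 and 7367 CPM in replicate 2. Of its 8 genes 1 was called, beside 4.14% of all genes tested and 0.956% of the protein-coding ones. This was the tubulin Tubb3, with 1061 and 405 counts, a fold of 1.26 (1.12 to 1.41) and an adjusted exact binomial p of 0.00365. The call was lost with library totals (0.679), with 1 count in each library as the filter (0.952), with replicate 1 thinned (0.289) and with the preset coefficient of variation (1), each an adjusted p. In the GABAergic list Sst, a neuropeptide of interneurons, had 115 and 35 counts and Npy 21 and 11, while the transcription factors Dlx1, Dlx2, Dlx5, Dlx6 and Lhx6 each had fewer than 10 counts in sum. The summed level of these 7 genes was 439 CPM in replicate 1 and 518 CPM in replicate 2. Of the forebrain glutamatergic list, 4 of 5 genes had at least 10 counts, with Tbr1 at 47 and 11, Neurod6 at 42 and 7, and a summed level of 453 and 429 CPM. The thalamus and hindbrain list held 112 and 33 counts over 6 genes, of which Zic1 gave 54 and 23 and Tcf7l2 22 and 3. The others were lower and not tested, with Lhx2 at 16 and 2, Lhx9 10 and 1, Barhl1 6 and 2 and Hoxb5 4 and 2. The summed level of this list was 304 and 295 CPM. Noradrenaline and serotonin neuron lists held 3 and 1 and 14 and 3 counts, with Phox2a and Fev at 0 in both libraries. The astrocyte list summed to 2775 and 2875 CPM. The part of these cell types in the levels of the 8 genes was not tested.

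Of the 8 genes, 5 have 1 transcript in the table, so their raw counts do not depend on the choice of transcript, although their CPM and density still move with the library scaling that each choice gives; Gad1 has 8, Gad2 has 2 and Th has 6. For Gad1 the choice was close. Gad1-001, which encodes the full enzyme, had 66 counts in replicate 1 and 23 in replicate 2, and Gad1-006, annotated as a processed transcript with no coding sequence, had 70 and 17. Gad1-006 was thus 4 counts above Gad1-001 in replicate 1 and 6 below it in replicate 2, and the sums were 89 for Gad1-001 and 87 for Gad1-006. The counts of isoforms appear to include the same fragments, so no counting error can be given for this difference. For the same reason, a count on Gad1-006 does not show that this RNA was on ribosomes.

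Gad1 is known to give shorter transcripts in the embryo that end before the catalytic part of the enzyme. The table holds Gad1-002, Gad1-003 and Gad1-004, which have a coding sequence of 672 nucleotides, or 37.7% of the full one. They had 21 and 6, 14 and 7, and 19 and 4 counts, or 30.3%, 23.6% and 25.8% of the summed count of Gad1-001. Each share is below the share of coding length, and no fragment can be assigned to a short form from these totals. Gad1-005, with a retained intron, had 17 and 4 counts over 3601 nucleotides. A gene named Gad1-ps had 9 and 4 counts, and whether these fragments also count for Gad1 could not be told apart. Gad1os, an antisense RNA that overlaps Gad1 in RefSeq, was at 0 in both libraries.

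Gad2-002, a processed transcript of 721 nucleotides, had 12 and 4 counts, or 25.0% of the summed count of Gad2-001 on 12.6% of its length. Gad2-001 has the longest 3' untranslated region of the 8 genes, at 3528 nucleotides. Th-002 had the highest sum among the transcripts of Th, at 8 counts, followed by Th-005 with 6 and Th-003 with 5, so the representative rests on a difference of 2 counts.

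**Figure D5:**
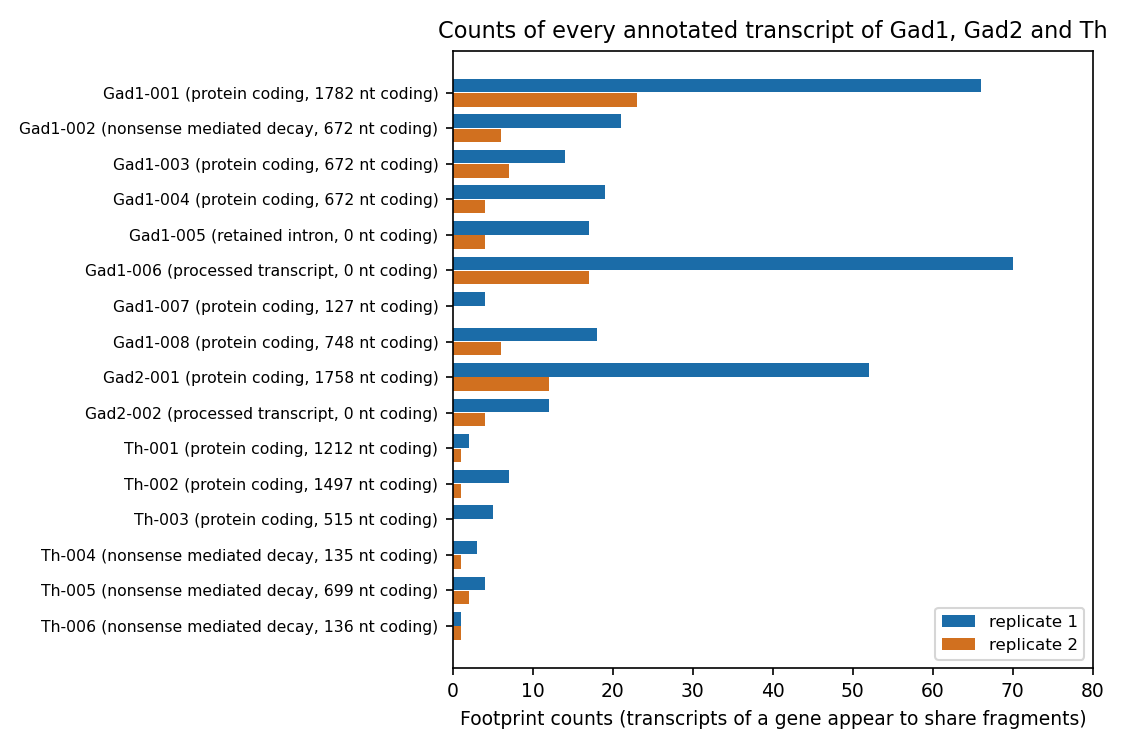
Footprint counts in replicate 1 (blue) and replicate 2 (orange) for each annotated transcript of Gad1, Gad2 and Th, with its biotype and coding length; bars start at 0, and transcripts of a gene appear to share fragments. Gad1-001 and Gad1-006 have nearly equal counts, and each of the other Gad1 transcripts has at most 21 in a library.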

How the data were processed

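Fragments of 25 to 35 nucleotides from RiboLace pull-downs of 2 brain lysates were sequenced, per the labels' protocols. The authors deposited whole-number counts per transcript and library, not normalised, for 109463 transcripts. Trimmomatic 0.36, Bowtie2 2.2.6, SAMtools and the build GRCm38.p4 are named in the submitters' processing notes, without role or order; the counting tool, annotation release and handling of fragments that match several transcripts are not given in the sources used here. Gad1-001 and Gad1-006 had nearly equal counts, with sums of 89 and 87, while the other isoforms of Gad1 and Gad2 had clearly fewer than the top one. From that 1 pair the table is taken to count a fragment for every transcript it matches. This is an inference and was not tested. Other values used were lengths in nucleotides per the file headers. Columns were matched to replicates by number and by the words for control and RiboLace. No coordinates or sequences are printed.

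Gene counts (the transcript with the highest sum, the longer in a tie) were scaled with edgeR 4.0.16 TMM over genes whose mean count reached 10. Intervals are Poisson for counts, conditional Clopper-Pearson for ratios and Wilson for shares, at 95%. Without molecular identifiers, reads copied by PCR are no separate molecules, so all intervals cover counting error only. Libraries were compared by the exact binomial test (SciPy 1.17.1), with a pseudocount of 1 CPM for log2 ratios. The test was also run on simulated Poisson counts. These hold only the counting error that the test assumes, so that run cannot show how it behaves on the real libraries. Named genes were the 8 members and the list genes with at least 10 counts in sum; sparser genes, and transcripts, were named after their values were seen. Some genes of the lists are not reported here. The members and lists were chosen with earlier results of these data known. Likeness of pattern over samples was not computed, since 2 libraries of 1 group give none. The alternatives tried are given in the closing section, with DESeq2 1.42.0 size factors among them.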

Additional observations from a re-analysis of the deposited data

How the results depend on the processing

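No paired analysis was possible because the series has a single group. The 8 genes gave 0 calls between the libraries under all 9 alternatives that were run, with smallest adjusted exact p-values from 0.302 to 1; 3 to 7 of the genes were tested in each. The 225 genes called overall became 75 where the mean count had to reach 50 (764 genes tested), 22 for protein-coding genes alone, 131 under edgeR's exact test at a coefficient of variation of 0.2, 136 with replicate 1 thinned and 605 with transcripts summed, which counts fragments repeatedly if isoforms share them, as inferred, and moved the share of higher calls from 96.4% to 63.3%. Uncalled log2 ratios near 0 changed sign with library totals for Gad1 (0.20 to -0.0067), Slc17a6 (0.15 to -0.056) and Slc17a7 (0.072 to -0.13). Where 1 count in each library was enough, Slc17a6 went to -0.034 and Slc17a7 to -0.11, and with replicate 1 thinned Slc17a6 went to -0.18. Summing transcripts turned the ratio of Slc32a1 to Gad1 from 1.29 to 0.406 and moved that of Gad2 to Gad1 from 0.654 to 0.263. It moved the share of the 8 genes from 0.149% to 0.0996% and put Gad1 first in the order at a density of 172. Summing inflates genes with many isoforms if these share fragments, as inferred. The handling of such fragments is not given, so the place of Gad1 in the order rests on that inference. Per kilobase of whole transcript, the ratio of Gad2 to Gad1 was 0.377 and that of Slc17a7 to Slc17a6 0.685, from 0.485 per coding kilobase, and Slc32a1 (78.4) passed Slc17a6 (64.9); the lengths of the untranslated regions set this change. No intervals are given at that length, so the pairs said to leave out equality do so per coding kilobase only. Leaving out each replicate in turn gave 0.529 to 0.799 for Gad2 over Gad1, 0.472 to 0.498 for Slc17a7 over Slc17a6, 1.13 to 1.47 for Slc32a1 over Gad1, 1.66 to 2.37 for Slc6a11 over Slc32a1, 0 to 0.963 for Slc18a2 over Th (the 0 rests on no count in replicate 2) and 0.143% to 0.155% for the share. Transcripts summed also lowered the density of single-transcript genes, such as Slc6a11 from 276 to 139, since the library totals rise. Depth limits the monoamine genes most.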
